A study of Homo sapiens with 4 samples.

Results

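HLA-B, HLA-C, HLA-E, HLA-F, HLA-G and B2M are the 6 genes described here, out of 19962 protein-coding genes of GENCODE release 44 on chromosomes 1 to 22 and X. They were chosen by name, and every SMC1 or CTCF peak with its summit within 50 kb of a gene start was taken, together with every loop that had an anchor within 5 kb of a transcript start. This gave 7 of 97364 SMC1 peaks, 3 of 63555 CTCF peaks, 0 of 28012 loops labelled SMC1 and 0 of 80487 loops labelled CTCF. The peak totals cover all sequences of the lists, and only the 96855 SMC1 and 62869 CTCF peaks of chromosomes 1 to 22 and X were searched. The material was the lymphoblastoid cell line HG00731, a B cell culture immortalised with Epstein-Barr virus, and no condition other than the antibody and the cross-linking differed between the groups. SMC1 FA-EGS HiChIP used 1% formaldehyde for 15 min followed by 2 mM ethylene glycol bis(succinimidyl succinate) for 45 min, and CTCF HiChIP used 1% formaldehyde alone for 10 min, with 2 biological replicates for each target. The replicates were pooled before peaks and loops were called, so no value below has a replicate error and no test was made. The target, the cross-linking and the read depth, which the study's supplement lists as higher for SMC1, cannot be told apart.

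Class I molecules display peptides from inside the cell to CD8 T cells and natural killer cells. Each consists of a heavy chain, encoded by an HLA gene in the major histocompatibility complex (MHC) on chromosome 6, and the invariant light chain beta-2 microglobulin, encoded by B2M on chromosome 15. HLA-B and HLA-C are classical heavy chains that are highly polymorphic, while HLA-E, HLA-F and HLA-G vary little. HLA-E presents leader peptides of other heavy chains to the receptor NKG2A, and HLA-G is best known from the placenta. SMC1 is a subunit of cohesin, the ring complex that extrudes chromatin loops, and CTCF is the zinc finger protein at which extrusion often stops. HiChIP joins DNA ends that lie close together, enriches fragments bound by the target, and yields both peaks of binding and loops between bins.

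The annotated positions (hg38) are given first. HLA-F lies at chr6:29722775-29738528 and HLA-G at chr6:29826967-29831125, both on the plus strand, with 14 and 4 distinct transcript starts. HLA-E lies at chr6:30489509-30494194 on the plus strand with 3 starts. HLA-C at chr6:31268749-31272130 and HLA-B at chr6:31353872-31367067 lie on the minus strand with 9 starts each, and the first annotated start of HLA-B is 9.89 kb upstream of the RefSeq start. B2M lies at chr15:44711358-44718851 on the plus strand with 11 starts. The promoters are the places at which a peak was looked for first, and 5 of the 6 genes had a promoter window from RefSeq (GRCh38.p14). The stretches below run from 195 to 31 bases before the RefSeq start, from chr6:31357210-31357374 (minus strand), chr6:31272123-31272287 (minus strand), chr6:29723239-29723403 (plus strand), chr6:29827630-29827794 (plus strand) and chr15:44711322-44711486 (plus strand). They are shown because none of them held a summit and because the next paragraphs return to how far the same letters occur elsewhere in the reference. Capitals mark matches on either strand to the kappaB element GGGATTCCC, to CCAAT, and to a pair of GAAA copies separated by 1 or 2 bases, as in interferon response elements.
HLA-B: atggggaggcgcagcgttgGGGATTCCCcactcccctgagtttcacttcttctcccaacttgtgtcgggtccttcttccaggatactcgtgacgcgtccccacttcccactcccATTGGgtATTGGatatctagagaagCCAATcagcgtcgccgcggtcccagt
HLA-C: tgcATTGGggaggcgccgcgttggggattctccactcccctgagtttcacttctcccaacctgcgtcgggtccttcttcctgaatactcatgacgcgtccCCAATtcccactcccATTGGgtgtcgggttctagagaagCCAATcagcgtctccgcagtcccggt
HLA-F: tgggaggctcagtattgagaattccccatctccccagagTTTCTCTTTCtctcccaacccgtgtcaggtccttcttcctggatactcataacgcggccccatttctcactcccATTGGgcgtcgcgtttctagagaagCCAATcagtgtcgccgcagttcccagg
HLA-G: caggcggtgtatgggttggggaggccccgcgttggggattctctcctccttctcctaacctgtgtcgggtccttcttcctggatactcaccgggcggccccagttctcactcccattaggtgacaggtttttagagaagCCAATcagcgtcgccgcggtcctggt
B2M: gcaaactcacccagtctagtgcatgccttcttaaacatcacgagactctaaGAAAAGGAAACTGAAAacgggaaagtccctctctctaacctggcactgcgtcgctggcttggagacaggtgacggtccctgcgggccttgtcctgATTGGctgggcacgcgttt
The CCAAT box next to the start was shared by the 4 HLA promoters shown. The B2M promoter held the box in the opposite direction, ATTGG. HLA-B, HLA-C and HLA-F also held ATTGG, further from the start. HLA-G had 3 promoter windows, and the window printed and aligned here was picked because it held CCAAT. Its other windows held 0 copies, so the box in HLA-G follows from the choice of window. CCAAT was found in 34.6% of all 35116 promoter windows of 300 bases. The kappaB letters were found in HLA-B and in 0.384% of all windows, and HLA-C, HLA-F and HLA-G did not hold these exact letters. A GAAA pair 2 bases apart was found in HLA-F and B2M and in 3.57% of all windows, and a pair 1 base apart in none of these promoters and in 3.12% of all windows. In global alignments over the 300 bases the HLA promoters were 73.6% to 88.5% identical to each other, with HLA-B and HLA-C the closest pair, and B2M was 48.3% to 49.8% identical to them. A match of letters is a description and not a binding site.

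No gene of the 6 had an SMC1 or a CTCF summit within 1 kb of any transcript start. Over all protein-coding genes, 62.6% had an SMC1 peak there and 46.7% a CTCF peak. A count of 0 of 6 genes allows a share of up to 50%, by the approximation of 3 divided by the number, as in the later limits. The approximation is rough for so few genes, and the HLA genes are neighbours on 1 chromosome. This limit therefore decides nothing about the shares of all genes. Nor did any of the 6 have a loop with an anchor within 5 kb of a transcript start, against 35.1% of coding genes for loops labelled SMC1 and 59.0% for those labelled CTCF. Within 50 kb of the gene start, 2 of the 6 genes, HLA-B and B2M, had an SMC1 peak and a CTCF peak, against 90.9% and 90.1% of coding genes. The shares among all coding genes describe a set in which neighbours share peaks, so genes are not independent of each other.

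Of the 5 HLA genes, 4 had no peak of either target within 50 kb. HLA-B had 1 SMC1 peak at chr6:31374401-31374672 with a fold enrichment of 4.19 and a -log10 q-value of 13.2. Fold enrichment here is the signal at the summit over the local background of the same library, and the q-value is that of the peak caller. The summit lay 7.5 kb upstream of the annotated gene start and 17.4 kb upstream of the RefSeq start, in an intron of the gene model ENSG00000285647. The CTCF peak at chr6:31373915-31374672 overlapped it, with a fold enrichment of 8.59 and a -log10 q-value of 34.7. Among all peaks of its target the SMC1 peak was at percentile 49.1 by q-value and the CTCF peak at percentile 61.7, so both were of middling significance. The best match to the CTCF motif within 100 bp of the CTCF summit scored 0.357 bits, far under the minimum of 10 bits. That motif was learned from CTCF summits on other chromosomes, and 24.9% of all CTCF peaks reached 10 bits against 3.23% of control windows.

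The same pair of peaks was the nearest to HLA-C, at 102 kb in both lists. For HLA-E the nearest SMC1 peak was 885 kb from the start, for HLA-F 1227 kb and for HLA-G 1331 kb. The nearest loop anchor of either list was between 1365 and 2305 kb from the HLA gene starts. The HLA genes therefore lay in a stretch of chromosome 6 that was almost without calls. Between the peaks that end at 28496549 and start at 33481066, 4.98 Mb apart, each list held 1 peak, the one upstream of HLA-B, although 183 protein-coding genes start there. No loop of either list had an anchor in this interval or spanned any of it. In the 5 Mb on its lower and upper side there were 286 and 404 SMC1 peaks, 182 and 227 CTCF peaks, 58 and 200 loops labelled SMC1, and 234 and 439 loops labelled CTCF. The peak upstream of HLA-B split the interval into stretches without an SMC1 summit of 2.88 and 2.11 Mb. By length these ranked 18th and 35th among 508 stretches over 500 kb in the SMC1 list, where stretches with 10% or more unknown bases were left out. By the number of coding genes they ranked second and first, with 71 and 112 genes against at most 48 in any other stretch.

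**Figure D1:**
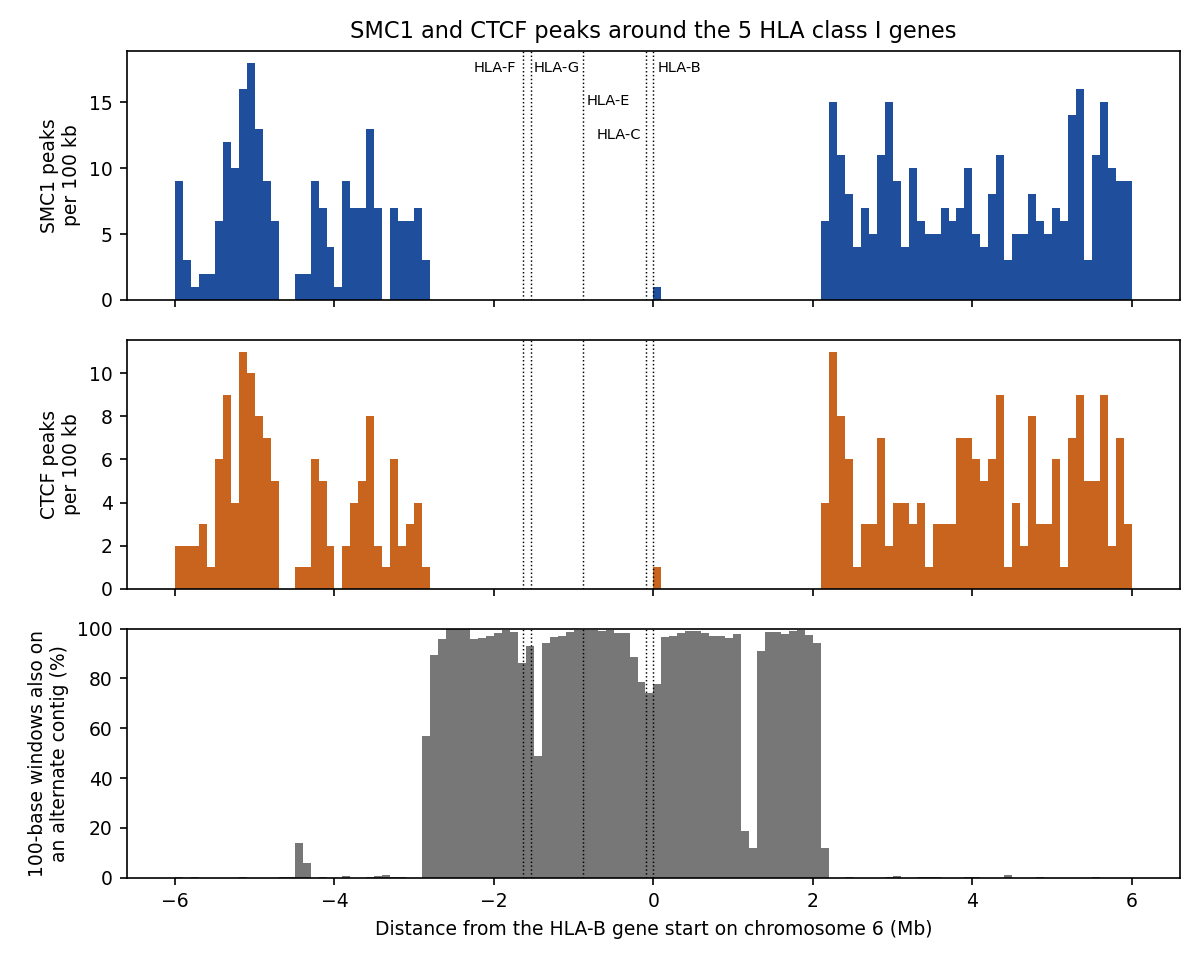
Number of SMC1 peaks (upper), number of CTCF peaks (middle) and percent of 100-base windows that also occur on an alternate contig (lower) in bins of 100 kb, against the distance from the HLA-B gene start in Mb, with the 5 HLA gene starts as dotted lines. Both peak lists hold 1 peak in the 4.98 Mb around the HLA genes, where the windows on alternate contigs rise from near 0 to 91.3%.

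The hg38 reference holds alternate contigs, further versions of regions that differ between people, of which the MHC has several. A read that matches more than 1 place equally well gets a low mapping quality unless the aligner is told which contigs are alternates, and only alignments with a MapQ over 30 were kept. Whether the alignment was told so is not given in the sources used here. To describe how far the genes are exposed to this, each 100-base window of the primary chromosomes, in steps of 10 bases, was looked up on the alternate contigs of hg38. In the 100 kb around their gene starts the exact windows were also found on an alternate contig for 69.2% in HLA-B, 76.8% in HLA-C, 78.6% in B2M, 85% in HLA-G, 86.3% in HLA-F and 99.5% in HLA-E. All 6 genes exceeded 50%, as did 3.84% of coding genes, and the median over coding genes was 0.100%. B2M belongs to the group although it is not in the MHC. In the promoter windows the share was 100% for B2M, HLA-C, HLA-F and the CCAAT-bearing window of HLA-G, and 25% for HLA-B. The HLA-B promoter was without a peak as well. The peak lists also name decoys and separate HLA allele sequences, on which no window was looked up, so all these shares can be too low. Whether the HLA-B promoter occurs on those sequences was not tested.

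The HLA-B SMC1 peak had 11.1% of its windows on an alternate contig and the overlapping CTCF peak 3.03%, against 69.2% for the 100 kb around the gene. Over all peaks on chromosomes 1 to 22 and X, 0.0217% of SMC1 peaks and 0.0445% of CTCF peaks had over 50% of their windows on an alternate contig, against 2.53% of all windows. Among coding genes the share without an SMC1 peak within 50 kb was 4.58% of 4258 genes with no such window, 6.50% of 14675 genes with up to 10%, 15.2% of 263 genes with 10 to 50%, 58.8% of 306 genes with 50 to 90%, and 96.7% of 460 genes with over 90%. For CTCF the same shares were 5.26%, 7.62%, 16.7%, 53.6% and 94.1%. A loop labelled CTCF was found at 64.9% of genes with no such window and at 0.435% of genes with over 90%. No loop labelled SMC1 was found at any of those 460 genes, which allows a share of up to 0.652% if genes are counted as independent. Neighbouring genes are not, so this limit is too narrow. The pattern was not limited to the MHC, since 76.8% of the 586 genes with over 50% outside the interval also had no SMC1 peak, and 72.0% no CTCF peak.

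**Figure D2:**
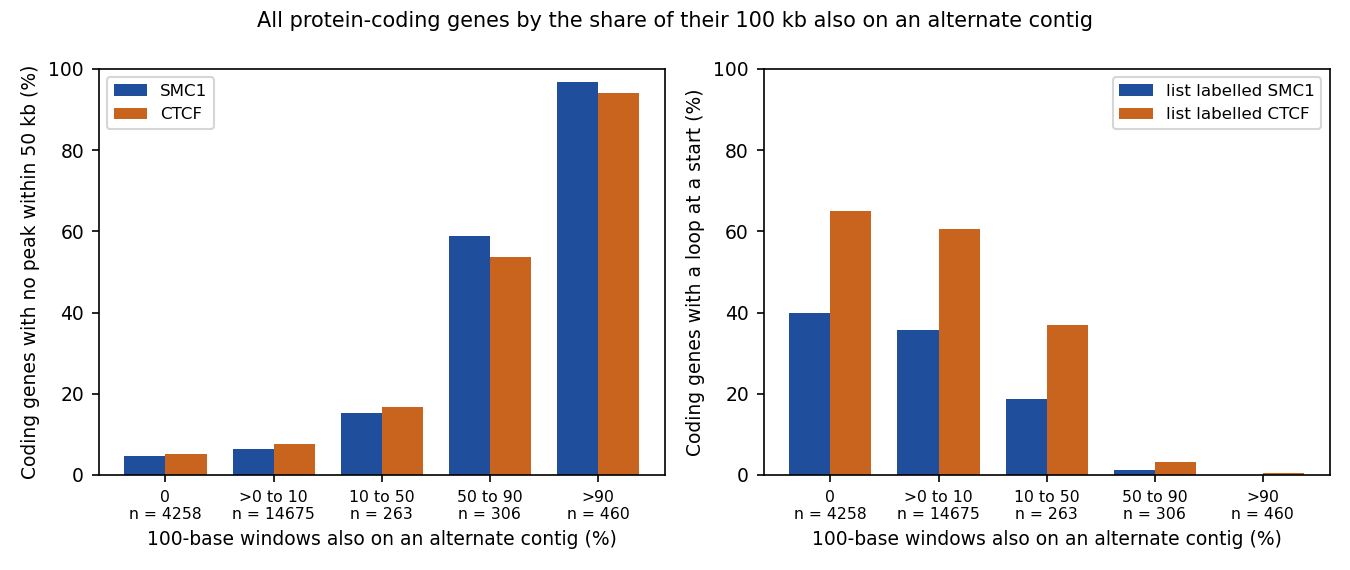
Percent of protein-coding genes with no peak within 50 kb of the gene start (left) and with a loop at a transcript start (right), for genes grouped by the percent of 100-base windows in their 100 kb that also occur on an alternate contig (n is the number of genes). The share without an SMC1 peak goes from 4.58% to 96.7% across the groups, and the share with a loop labelled CTCF from 64.9% to 0.435%.

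Not every empty part of the interval had such windows. In bins of 1 kb, 138 bins of the interval had no window on an alternate contig and 0 of these held an SMC1 or a CTCF summit, which allows a share of up to 2.17%. In the 5 Mb on either side, 7.01% of 9659 such bins held an SMC1 summit and 4.15% a CTCF summit. Among the 3801 bins of the interval with over 90% of windows on an alternate contig, the count was also 0, which allows up to 0.0789%. Both limits count bins as independent. Neighbouring bins are not, so the limits are too narrow. The interval was drawn to end at peaks, 1226 kb below the HLA-F start and 2114 kb above the HLA-B start. By construction no summit lies between these ends and the HLA genes, apart from the 50 kb just above HLA-B. The counts of 0, their limits and the difference from the flanks are therefore partly fixed in advance. A window that differs from a contig by a single base counts here as not found, so a bin at 0 can still resemble one. It can also occur on a decoy or a separate HLA allele sequence, where no window was looked up. The part of the shared windows in the missing peaks was not tested, and the lists cannot tell binding that was absent from reads that were not kept.

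B2M had 6 SMC1 and 2 CTCF peaks within 50 kb. The median over coding genes was 6 SMC1 peaks with quartiles of 3 and 9, and 4 CTCF peaks with quartiles of 2 and 6, so B2M was at the median for SMC1 and at the lower quartile for CTCF. On the upstream side the strongest pair shared its summit, 47.3 kb before the B2M start. The SMC1 peak there, at chr15:44663710-44664574, had a fold enrichment of 6.29 and a -log10 q-value of 174, and the CTCF peak at chr15:44663657-44664203 had 13.8 and 265. These ranked at percentile 97.8 and 97.6 of their lists by q-value. The shared summit lay 337 bp from a start of SPG11, a gene for a lysosomal protein, rather than at B2M. Its best CTCF motif scored 2.83 bits, under the minimum.

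The other upstream peaks were weaker and lay near other genes. A second CTCF peak 48.3 kb before the B2M start, within SPG11, had a fold enrichment of 3.21 and a motif of 7.42 bits. Within PATL2, a gene of RNA metabolism in oocytes, SMC1 peaks lay 45.1 kb and 35.7 kb before the B2M start with fold enrichments of 1.84 and 2.82, and the latter summit lay 36 bp from a PATL2 start. The next peaks outward, beyond the 50 kb limit, were an SMC1 peak at 63.1 kb with a fold enrichment of 2.75 and a CTCF peak at 62.8 kb with 3.67.

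Downstream of the start all 3 peaks were SMC1 peaks without an overlapping CTCF peak. The first, at chr15:44717241-44717483, lay in the B2M gene 5.97 kb after the gene start, in an exon of at least 1 transcript model and 1516 bp from the nearest B2M start, with a fold enrichment of 4.66 and a -log10 q-value of 16.6. The other pair lay between B2M and TRIM69, a ubiquitin ligase gene, at 14.5 and 15.1 kb, with fold enrichments of 6.57 and 6.76 and -log10 q-values of 32.3 and 34. By q-value, as used for the peaks above, the pair was at percentiles 72.6 and 73.8 of all SMC1 peaks. By fold enrichment it was at percentiles 90.7 and 91.8, where the SMC1 peak upstream of HLA-B was at 67.1. The summits of the pair lay 3103 and 2539 bp from the nearest TRIM69 start. Over the 7 SMC1 peaks at the 6 genes, 2 overlapped a CTCF peak, or 28.6% (95% Wilson interval 8.22 to 64.1%), against 47.1% of all 96855 SMC1 peaks, which lies within that interval. The interval covers counting error only.

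The windows at the B2M peaks differed between the sides of the start. The 3 SMC1 and 2 CTCF peaks upstream had 0% of their windows on a contig, and the 3 SMC1 peaks downstream had 40.0%, 21.1% and 21.4%. The contig windows began 35 kb before the B2M start and ended 205 kb after it. In these 240 kb, with 87.1% of windows on a contig and 3 coding gene starts, there were 4 SMC1 peaks and 1 CTCF peak. The same length on the lower side, with 0.154%, held 13 and 13, and on the upper side, with 6.05%, 9 and 11. The B2M promoter lay inside this stretch, in a gap of 41.7 kb between SMC1 summits. Of the 6 SMC1 peaks within 50 kb of B2M, 3 also lay inside it, and the part of the shared windows in these counts was not tested.

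**Figure D3:**
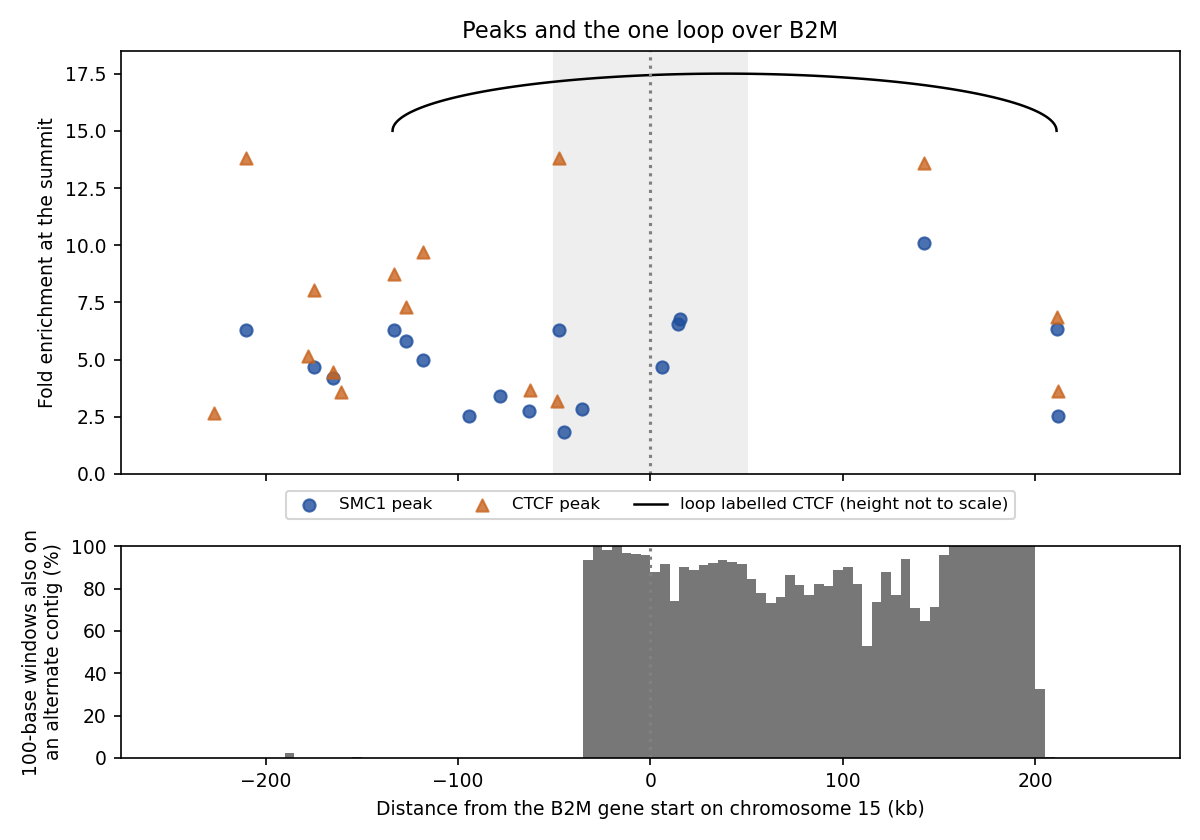
Fold enrichment at the summit of SMC1 peaks (circles) and CTCF peaks (triangles) against the distance from the B2M gene start in kb (upper; the grey band is the 50 kb window and the arc the loop over B2M, its height without scale), with the percent of 100-base windows also on an alternate contig in bins of 5 kb (lower). No CTCF summit lies between 47.3 kb before the start and 142 kb after it.

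A single loop spanned the start of any of the 6 genes. It came from the list labelled CTCF, whose target the study's text gives the other way round, and joined chr15:44575001-44580000, 134 kb before the B2M start, to chr15:44920001-44925000, 211 kb after it. It had 17 read pairs against 2.35 expected, a ratio of 7.25, where the smallest number in the list was 12. No loop labelled SMC1 spanned any of the 6 gene starts. By comparison, the gene start was spanned in 74.4% of coding genes by a loop labelled CTCF and in 46.8% by one labelled SMC1. The lower anchor overlapped an SMC1 peak with a fold enrichment of 6.31 and a CTCF peak with 8.76, and lay within 5 kb of a start of SPG11. The upper anchor held 2 peaks of each target, the strongest with 6.32 and 6.85, and no coding start within 5 kb. The lower anchor held a CTCF motif of 15.2 bits on the plus strand, which points into the loop, and neither CTCF peak of the upper anchor reached 10 bits within 100 bp of its summit. The motif, in capitals, lies at chr15:44578618-44578697 on the plus strand with 30 bases on either side, and is shown because it is the one strong CTCF site found at an end of a loop over these genes.
SPG11 side anchor: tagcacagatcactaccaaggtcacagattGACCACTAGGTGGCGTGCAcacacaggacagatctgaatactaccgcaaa
The strong CTCF peak 47.3 kb before the B2M start carried no loop of either list, and no loop of either list had an anchor within 100 kb of the B2M start.

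The other genes of antigen presentation were read from lists of 48 genes. In the list of peptide loading and the immunoproteasome, 9 of 14 genes had an SMC1 peak within 50 kb, the same 9 at a transcript start, and 4 had a CTCF peak at a start. Over all coding genes these shares were 90.9%, 62.6% and 46.7%. The 5 without any peak or loop were TAP1 and TAP2, the subunits of the peptide transporter, TAPBP, which bridges it to class I molecules, and the proteasome subunits PSMB8 and PSMB9, all in the interval of chromosome 6. Their windows were on an alternate contig for 97.5% to 99.2%. The list members elsewhere included ERAP1 and ERAP2, which trim peptides, with 10 and 15 SMC1 peaks, and CALR, a chaperone of heavy chains, with 13. All 12 regulators had an SMC1 peak at a start and 9 a CTCF peak, against 62.6% and 46.7% of all coding genes. Loops labelled SMC1 were found at 4 of the 12 and loops labelled CTCF at 9, against 35.1% and 59.0% of all coding genes. RFX5, RFXAP and RFXANK, the subunits of the RFX complex that binds class I promoters, had no loop labelled SMC1, and RFX5 had 6 labelled CTCF. Among the regulators the most loops were at NLRC5, the transactivator of class I genes, with 33 labelled SMC1 and 42 labelled CTCF. IRF1, an interferon response factor, followed with 22 and 32. Over all coding genes the median was 0 loops labelled SMC1 and 1 labelled CTCF, with upper quartiles of 2 and 6.

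Of the 13 class I-like genes, 12 had an SMC1 peak within 50 kb, 5 at a start, and 6 had a CTCF peak at a start. The shares over all coding genes were 90.9%, 62.6% and 46.7%, so the first and last counts were near them. MICA, a ligand of the receptor NKG2D, lies in the interval and had 1 SMC1 and 1 CTCF peak within 50 kb, which are those upstream of HLA-B, and MICB had none. HFE, a regulator of iron uptake that also pairs with beta-2 microglobulin, lies on chromosome 6 outside the interval and had 12 SMC1 peaks. Of the 9 receptor genes, 4 had an SMC1 peak within 50 kb and 1, CD8A, had peaks of both targets at a start. LILRB1, LILRB2, KIR2DL1 and KIR3DL1, on chromosome 19, had no peak, and 94.1% to 100% of their windows were on an alternate contig. CD8B had no peak either, with a share of 0%. Over the 4 lists, 1 of 11 genes with a share over 50% had an SMC1 peak within 50 kb and none had a loop, against 36 of 37 genes at or under 50%, of which 15 had a loop labelled SMC1 and 26 a loop labelled CTCF.

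**Figure D4:**
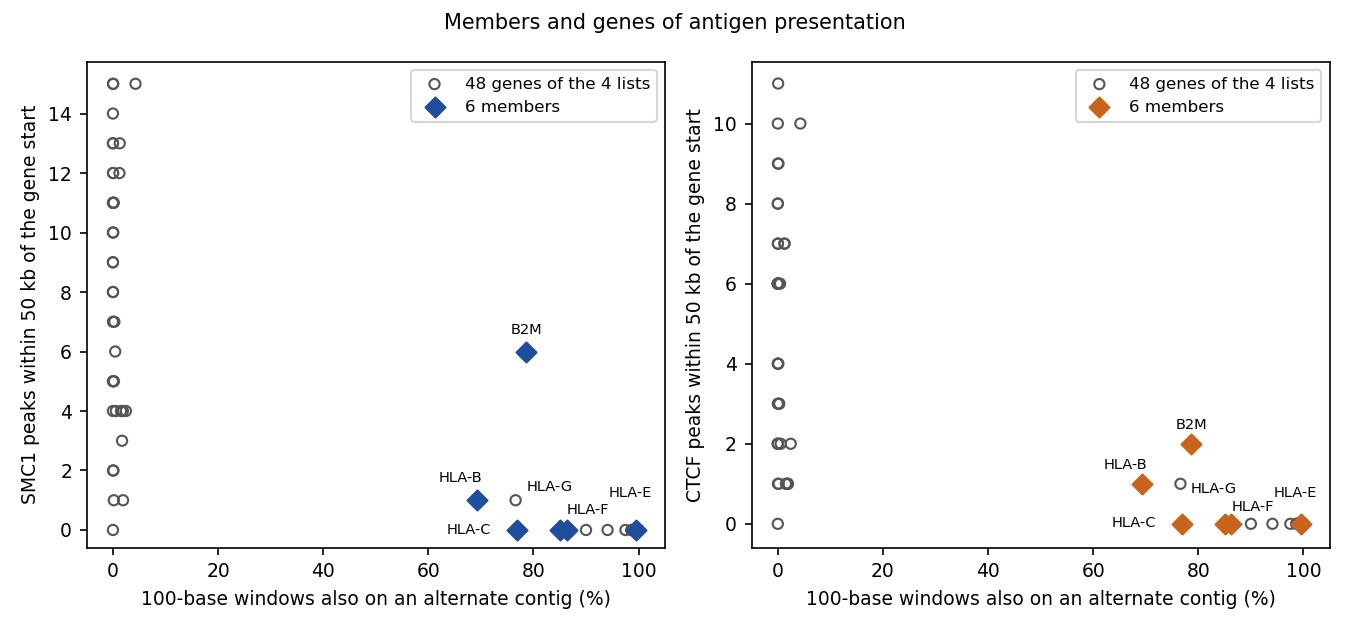
Number of SMC1 peaks (left) and CTCF peaks (right) within 50 kb of the gene start against the percent of 100-base windows in that 100 kb that also occur on an alternate contig, for the 6 genes (diamonds) and the 48 genes of the 4 lists (open circles). Among genes over 50%, B2M stands highest with 6 SMC1 and 2 CTCF peaks, while genes at or under 50% reach 15 SMC1 peaks.

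By the numbers of peaks of each target within 50 kb and of loops of each list, 66 coding genes over 1 Mb away had the same 4 numbers as B2M, among them in alphabetical order ANGPT2, ARGLU1 and ARL2BP. For HLA-B there were 508 such genes, beginning with ABHD17C, ABO and ACSM2B, and for the 4 genes with no peak and no loop between 1334 and 1387, beginning with AADACL2, AATF and ABCC6, so these numbers single out no gene. The labelled cell type was read from SMC1 peaks at gene starts, which mark binding and not expression. All 8 B cell genes had one, against 1 of 4 T cell genes, 2 of 4 myeloid genes, 1 of 3 liver genes and 62.6% of all coding genes. CTCF peaks at a start were found at 6 of 8 B cell, 2 of 4 T cell, 1 of 4 myeloid and 1 of 3 liver genes. The median number of SMC1 peaks within 50 kb was 12.5, 6, 7 and 6 in the same order. Whether a gene had any peak within 50 kb or any loop did not set the B cell genes apart from the T cell genes. All genes of the 4 marker lists had an SMC1 and a CTCF peak within 50 kb. Loops labelled SMC1 were found at 7 of 8 B cell, 4 of 4 T cell, 2 of 4 myeloid and 1 of 3 liver genes, and loops labelled CTCF at 8, 4, 3 and 2 of them.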

How the data were processed

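HiChIP of HG00731 was done in 2 biological replicates per target. The titles name HG00731, while the growth label names HG00721. The authors used BWA-MEM 0.7.17 for alignment to hg38, discarded duplicates and reads with a MapQ of 30 or less, pooled the replicates and ran MACS3 3.0.1 without input at a q-value of 0.01. In the peak lists the authors deposited a score per peak (not used), the fold enrichment as a ratio, and the -log10 of the q-value. In the loop lists, made with MAPS at 5 kb, the authors deposited a count of read pairs without normalization, the expected signal from the regression, and a false discovery rate as a q-value with a -log10 P per cluster. Loops labelled SMC1 hold 788356 read pairs and those labelled CTCF 2666327, and the depth per replicate is unknown. The labels disagree with the study's text and supplementary table, which give the loop numbers of the lists to the opposite targets, and lists were used as labelled, so the target of every loop value is in doubt.

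Peaks were assigned by summit to GENCODE 44 starts, and 1 bp counted as overlap. No peak or loop on chromosomes 1 to 22 and X ran past the ends of the hg38 sequence. The windows of 100 bases were looked up exactly, on both strands, on alternate contigs. A CTCF motif of 19 bp (15.0 bits) was learned from the 3000 CTCF summits with the highest -log10 q-value outside chromosomes 6, 8 and 15. Window search and motif learning were tested on simulated data. Python 3 scripts with NumPy, pandas, SciPy, pysam and minimap2 were used. Named genes were the 6 genes, their peaks with the highest -log10 q-value, loops, the listed genes and the genes nearest in their 4 numbers. The members and lists were chosen with earlier results of these data known. The peaks beyond the 3 strongest per target and the window shares were added after their values were seen.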

Additional observations from a re-analysis of the deposited data

Results flagged for a closer look

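Signal was found on sequences that no comparison above uses. The peak lists hold 15 SMC1 peaks and 14 CTCF peaks on the alternate versions of the MHC, 7 contigs with 33.1 Mb in all. That is fewer per length than beside the interval on chromosome 6, where 5 Mb on the lower and upper side held 286 and 404 SMC1 peaks and 182 and 227 CTCF peaks. The 7 contigs are versions of the same region, so their length counts it repeatedly and the comparison is between unlike sequences. The fold enrichment of these peaks had a median of 5.62 for SMC1 and 7.41 for CTCF. By alignment of 20 kb on either side of each gene start to the contigs, 6 of the SMC1 and 4 of the CTCF peaks lay within 50 kb of a copy of an HLA gene described here. Of these, 3 SMC1 and 2 CTCF peaks were near copies of HLA-B, and none of either target near HLA-C or HLA-E. Near copies of HLA-G there were 2 SMC1 peaks and 1 CTCF peak, and near copies of HLA-F 1 of each. For B2M, the alternate contig that holds its copy had 1 SMC1 peak, 13.5 kb from the copy of the start, and 0 CTCF peaks. Each list also held 1 peak on a separate HLA allele sequence. Whether reads of the HLA genes were placed on these sequences was not tested.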

How the results depend on the processing

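No paired analysis was possible because the replicates of each target were pooled in 1 list, so that neither a replicate block nor leaving out a replicate could be computed. Of 37 alternatives, 14 could return nothing but 0, since they restrict or exchange lists that hold 0 loops or start peaks at the genes, and these say nothing about stability. Of the other 23, 17 left the value within 1.5 times of the reported one or inside its interval. With a window of 25 kb in place of 50 kb, 4 SMC1 peaks and 1 CTCF peak remained at the 6 genes. The 5 HLA genes alone had 1 SMC1 and 1 CTCF peak (chosen after seeing the data). Within 5 kb of a transcript start, 1 gene, B2M, had an SMC1 peak. Counting loops that span a gene start gave 1 loop labelled CTCF (chosen after seeing the data). Exchanging the loop lists between the targets would move the loop over B2M to SMC1. The 6 alternatives for loops shared between the lists and for convergent motifs gave no value, since no loop had an anchor at the genes. With windows of 150 bases, also chosen after seeing the data, 744 in place of 766 coding genes had over 50% of their windows on an alternate contig. Pooled lists without depth per replicate limit every count, and a value listed at 0 can be binding under the q-value of the lists.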
